A study of Homo sapiens with 6 samples.

Results

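The MHC class I antigen presentation genes were examined in NCI-H660 cells given PP or, as the control, PBS. The members were the rows of the deposited expression table with the symbols HLA-B, HLA-C, HLA-E, B2M, TAP1, TAP2, TAPBP, ERAP1 and NLRC5, which made 9 of 17177 genes. The rule picks them by symbol and uses no measured value, though the set was proposed with earlier results of these data known. NCI-H660 is an established cell line of human neuroendocrine prostate cancer. PP is pyrvinium pamoate, a drug that the study used against the RNA-binding protein ELAVL3, and PBS, the control, is phosphate-buffered saline. The labels name no transgene or knockdown in either group. The sample titles give day 3 for both groups, which is taken here as day 3 of treatment. The dose given to these cells is not stated in the sources used here. Polyadenylated RNA was sequenced from 3 libraries per treatment. Because the line is a single cell line, the values describe that line only, and the labels do not state whether the libraries came from separate cultures, so P values measure the spread between these libraries.

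MHC class I molecules display short peptides from inside the cell on its surface, where cytotoxic T cells read them. Peptides cut by the proteasome are pumped into the endoplasmic reticulum by the transporter TAP, trimmed by aminopeptidases such as ERAP1, and loaded with the help of tapasin onto a heavy chain paired with β2-microglobulin. Transcription of the heavy chains and of several loading genes is driven by NLRC5, which is recruited to a conserved promoter module by factors bound to DNA, and by interferon-responsive and NF-κB factors. Low class I display is a known feature of many neuroendocrine and small cell tumours.

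After PP treatment 7 of the 9 members were lower and 2 were higher, by an adjusted p below 0.05 in limma on log2(FPKM + 1). The adjustment (Benjamini-Hochberg) ran over the 11726 genes whose mean FPKM reached 1. FPKM counts fragments per kilobase of transcript, scaled to the mapped fragments of the library, and all 9 members passed the filter on low values. Tapasin (TAPBP) and TAP1 fell the most, by 44.2% and 37.7% of the mean FPKM, and the heavy chains and B2M fell by 20.5% to 27.4%. NLRC5 rose 1.62-fold, in the opposite direction to the genes it is known to activate. Differential expression was widespread in these cells: 34.4% of all tested genes were lower and 38.1% were higher by the same rule, so a count of called members says little without the sizes. The median log2 fold change was -0.36 over the 9 members and 0.02 over all tested genes. None of the 9 passed the study's stricter cutoff, taken here as an unadjusted P under 0.001 with a log2 fold change beyond 1 in either direction. That cutoff was passed by 2.93% of all tested genes in the lower and 2.24% in the higher direction.

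**Figure D1:**
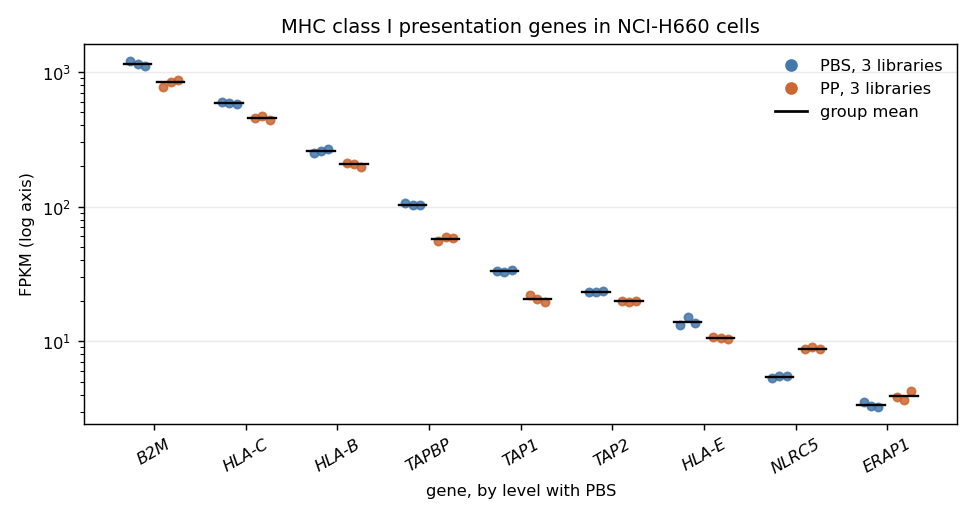
FPKM of each member (log axis) in the 3 PBS and the 3 PP libraries, in the order of the level with PBS, with each point a library and each black line a group mean. The groups do not overlap for any member: the PP libraries lie below for 7 genes and above for NLRC5 and ERAP1.

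The 6 libraries held between 29064253 and 32481171 counts each, as recovered from the steps of the FPKM values, and no library stood apart from its group (chi-square per degree of freedom of 3.37 to 7.07 between libraries of the same treatment and at least 149.2 between treatments). The labelled cell type was checked against its markers. The neuroendocrine markers CHGA, SYP, NCAM1, ENO2 and INSM1 were present in every library, and with PP 3 were lower, 1 was higher and 1 had no call. Their summed level was 170 to 180 FPKM with PBS and 140 to 154 with PP, and CHGA, a protein of secretory granules, fell most among them (log2 fold change -0.78). Of 10 leukocyte markers 2 were high enough to be tested and neither passed (CD14 log2 fold change 0.01, CD68 -0.21 with a limma adjusted p of 0.0524). Their summed level was 2.998 to 3.65 FPKM with PBS and 2.26 to 3.13 with PP, nearly all from CD14 and CD68, and the defining leukocyte gene PTPRC was at 0.020 FPKM or less in every library. Leukocytes express class I genes strongly, and their defining gene was thus at or near 0 in both groups. The part of the lower neuroendocrine markers in the results below was not tested. In bulk libraries such as these, fewer cells with a transcript and less of it per cell cannot be told apart.

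Promoter sequences are shown for the members whose change is described below, because the genes that fell share known class I promoter elements to different degrees. RefSeq promoters (GRCh38.p14) were found for 7 of the 9 members, not for HLA-E and NLRC5. Each line gives the 200 bases before the annotated gene start, 5′ to 3′ on the gene's strand. Capitals mark matches on either strand, within the stretch, to CCAAT (the Y box bound by NF-Y), TGACG (the core of the X2 box bound by CREB and ATF1), TTTCNNTTT (a core of the interferon-stimulated response element bound by IRF factors) and GGGNNTTCC (one form of the κB element bound by NF-κB). Other forms of the κB element were not searched, so their letters may stand uncapitalised in these stretches, those of TAP1 and B2M included. The same holds for other forms of the interferon-stimulated response element, with the stretches of HLA-B and HLA-C included.
HLA-B (chr6:31357180-31357379, minus strand): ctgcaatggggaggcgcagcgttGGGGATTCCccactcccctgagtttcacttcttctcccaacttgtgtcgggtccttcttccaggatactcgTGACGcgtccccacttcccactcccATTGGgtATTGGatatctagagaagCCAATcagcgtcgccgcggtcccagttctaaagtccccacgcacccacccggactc
HLA-C (chr6:31272093-31272292, minus strand): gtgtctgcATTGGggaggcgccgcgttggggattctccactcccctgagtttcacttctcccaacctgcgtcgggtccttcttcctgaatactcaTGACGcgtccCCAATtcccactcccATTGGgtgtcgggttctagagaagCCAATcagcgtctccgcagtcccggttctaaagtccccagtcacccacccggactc
B2M (chr15:44711317-44711516, plus strand): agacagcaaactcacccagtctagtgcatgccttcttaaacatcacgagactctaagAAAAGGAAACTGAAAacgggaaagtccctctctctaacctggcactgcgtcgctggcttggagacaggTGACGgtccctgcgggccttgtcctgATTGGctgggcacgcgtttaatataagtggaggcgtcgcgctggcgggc
TAP1 (chr6:32853705-32853904, minus strand): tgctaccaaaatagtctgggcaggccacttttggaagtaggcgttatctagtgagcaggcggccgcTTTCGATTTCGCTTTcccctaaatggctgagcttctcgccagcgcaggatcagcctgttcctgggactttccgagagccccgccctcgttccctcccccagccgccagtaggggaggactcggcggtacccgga
TAP2 (chr6:32838740-32838939, minus strand): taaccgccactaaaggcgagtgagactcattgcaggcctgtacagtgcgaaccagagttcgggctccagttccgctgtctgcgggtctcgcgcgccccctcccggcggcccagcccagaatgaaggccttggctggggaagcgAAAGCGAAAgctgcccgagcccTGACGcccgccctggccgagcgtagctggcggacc
TAPBP (chr6:33314079-33314278, minus strand): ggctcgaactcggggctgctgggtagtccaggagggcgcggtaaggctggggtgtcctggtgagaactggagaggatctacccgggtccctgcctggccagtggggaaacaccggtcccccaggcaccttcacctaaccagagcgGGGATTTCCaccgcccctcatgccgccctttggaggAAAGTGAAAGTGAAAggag
Over windows from 250 bases before to 50 after the start, CCAAT was found in 34.6% of the 35116 promoters of the table, TGACG in 24.6%, TTTCNNTTT in 10.5% and GGGNNTTCC in 6.58%. The HLA-B and HLA-C stretches were 87.7% identical (179 of 204 aligned columns), and both held TGACG with CCAAT boxes downstream of it, as did B2M. HLA-B held 3 CCAAT matches and HLA-C held 4, and HLA-B alone of the pair held a GGGNNTTCC match. In the form searched, the interferon-response core occurred as 2 overlapping matches in B2M, in TAP1 and in TAPBP and as 1 match in TAP2. TAP2 also held TGACG. TAPBP also held a GGGNNTTCC match. Outside the printed stretches, TAP1 held a CCAAT match farther upstream and B2M a GGGNNTTCC match across its start site. The ERAP1 table entries were at 2 start sites, neither of them at the annotated gene start, and are not printed. Another TAP1 entry, at a start site other than the annotated gene start, held none of the searched forms and is not printed either. A match is a string of letters in this window, and binding was not measured.

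Among the heavy chains, which hold the peptide, HLA-C was the most abundant. It was at 595, 589 and 577 FPKM in PBS replicates 1, 2 and 3 and at 457, 473 and 441 in PP replicates 1, 2 and 3. Every PP library was below every PBS library, and the mean fell from 587 ± 8.86 to 457 ± 16.4 (SD, n = 3 libraries each), a decrease of 22.1%. The log2 fold change of HLA-C was -0.36 (SE 0.03, limma adjusted p = 4.16e-06).

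HLA-B, also a classical heavy chain, was at 251, 257 and 267 FPKM with PBS and at 211, 208 and 198 with PP. Its groups were likewise apart, with means of 259 ± 8.07 and 206 ± 6.87 (SD, n = 3). HLA-B fell by 20.5%, with a log2 fold change of -0.33 (SE 0.04, limma adjusted p = 1.71e-05). Counts for HLA-B ran from 9655 to 12828 per library, so counting error was small beside the spread between libraries.

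HLA-E, a heavy chain that presents leader peptides to the NKG2A receptor of natural killer cells, stood far below the other heavy chains. Its values were 13.3, 14.98 and 13.7 FPKM with PBS and 10.7, 10.6 and 10.4 with PP, on 861 to 1177 counts per library. The lowest PBS library was above the highest PP library. HLA-E fell by 24.4%, from 13.97 ± 0.896 to 10.6 ± 0.177 (SD, n = 3), with a log2 fold change of -0.37 (SE 0.05, limma adjusted p = 0.000102). The 3 heavy chains had nearly the same log2 fold change although their levels ran from 13.97 to 587 FPKM with PBS. Heavy chain genes are similar in sequence and vary between people, and how shared reads were assigned is not stated, so the split of reads among HLA-B, HLA-C, HLA-E and related genes is uncertain.

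B2M encodes β2-microglobulin, the light chain without which no heavy chain reaches the surface stably. It had the highest level of all members, at 1199, 1137 and 1107 FPKM with PBS and 778, 848 and 876 with PP. All 3 PP libraries lay below the PBS libraries, by a margin wider than the spread within either group. B2M fell by 27.4%, from 1148 ± 46.9 to 834 ± 50.6 (SD, n = 3), and its log2 fold change was -0.46 (SE 0.05, limma adjusted p = 8.36e-06). In the order of all genes of the table by mean level it moved from rank 7 with PBS to rank 11 with PP.

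The balance of heavy and light chain transcripts was compared within each library. The summed FPKM of HLA-B, HLA-C and HLA-E fell from 860 ± 1.84 to 673 ± 22.1 (SD, n = 3), with every PP library below every PBS library. Divided by B2M, the sum was 0.716, 0.758 and 0.775 with PBS and 0.873, 0.816 and 0.741 with PP. These groups overlapped, since PP replicate 3 was below 2 of the PBS libraries. The log2 ratio differed by 0.11 between the means (two-sided exact permutation test, p = 0.3), so a shift in the balance was not detectable with 3 libraries against 3, where the smallest p is 0.1.

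TAP1 and TAP2 form the heterodimer that pumps peptides into the endoplasmic reticulum. TAP1 was at 33.4, 32.7 and 33.7 FPKM with PBS and at 22.1, 20.4 and 19.7 with PP. The PBS libraries were close to each other, and the PP libraries all lay well below them. TAP1 fell by 37.7%, from 33.3 ± 0.509 to 20.7 ± 1.23 (SD, n = 3), with a log2 fold change of -0.66 (SE 0.05, limma adjusted p = 6.45e-07). Only 7.76% of all tested genes had a lower log2 fold change.

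TAP2 was at 23.0, 23.2 and 23.6 FPKM with PBS and at 19.9, 19.6 and 20.03 with PP. The groups were apart, by less than for TAP1. TAP2 fell by 14.8%, from 23.3 ± 0.299 to 19.8 ± 0.237 (SD, n = 3), with a log2 fold change of -0.22 (SE 0.04, limma adjusted p = 0.000391). It was the smallest decrease among the 7 members that fell.

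The TAP1 to TAP2 ratio was 1.45, 1.41 and 1.43 with PBS and 1.11, 1.04 and 0.981 with PP. Every PP library was below every PBS library, and with PP the subunits were at about equal FPKM. The log2 ratio fell by 0.45 (two-sided exact permutation test, p = 0.1, the smallest that 3 against 3 libraries allow). TAP1 is also the head-to-head neighbour of PSMB9, and PSMB9 fell less, from 46.6 ± 3.28 to 40.3 ± 2.90 FPKM (SD, n = 3; log2 fold change -0.20, limma adjusted p = 0.0121). The call for PSMB9 was lost without PBS replicate 3, where its log2 fold change was -0.15.

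TAPBP encodes tapasin, which bridges TAP and the empty heavy chain and favours the exchange of weakly bound peptides. It was at 106, 102 and 102 FPKM with PBS and at 55.9, 59.2 and 58.0 with PP. All PP libraries were far below all PBS libraries, on at least 6523 counts each. TAPBP had the largest change of the 9 members, a fall of 44.2% from 103 ± 2.39 to 57.7 ± 1.68 (SD, n = 3), with a log2 fold change of -0.83 (SE 0.04, limma adjusted p = 1.71e-08). In the order of all genes it moved from rank 519 to rank 1034, and 4.76% of tested genes had a lower log2 fold change.

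ERAP1, the endoplasmic reticulum aminopeptidase that trims peptides to the length class I molecules hold, was the member with the lowest level and the least certain change. It was at 3.53, 3.31 and 3.26 FPKM with PBS and at 3.86, 3.64 and 4.29 with PP. The groups were barely apart, with the highest PBS library at 3.53 FPKM and the lowest PP library at 3.64. The mean rose by 16.8%, from 3.37 ± 0.140 to 3.93 ± 0.327 (SD, n = 3), with a log2 fold change of 0.17 (SE 0.07, limma adjusted p = 0.0357). That call was lost when 1 of 4 libraries was left out: the log2 fold change and limma adjusted p were 0.17 and 0.0875 without PBS replicate 2, 0.16 and 0.0993 without PBS replicate 3, 0.18 and 0.0581 without PP replicate 1, and 0.12 and 0.128 without PP replicate 3.

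NLRC5 encodes the class I transactivator. It was at 5.29, 5.49 and 5.51 FPKM with PBS and at 8.77, 8.97 and 8.69 with PP, on 1290 to 2283 counts per library. The PP libraries all lay above the PBS libraries, and the gap between the groups was wide beside the spread within them. The mean rose 1.62-fold, from 5.43 ± 0.120 to 8.81 ± 0.143 (SD, n = 3), with a log2 fold change of 0.61 (SE 0.05, limma adjusted p = 1.44e-06). On the log2(FPKM + 1) scale a change at such a level is understated. NLRC5 had a higher log2 fold change than 92.6% of all tested genes.

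**Figure D2:**
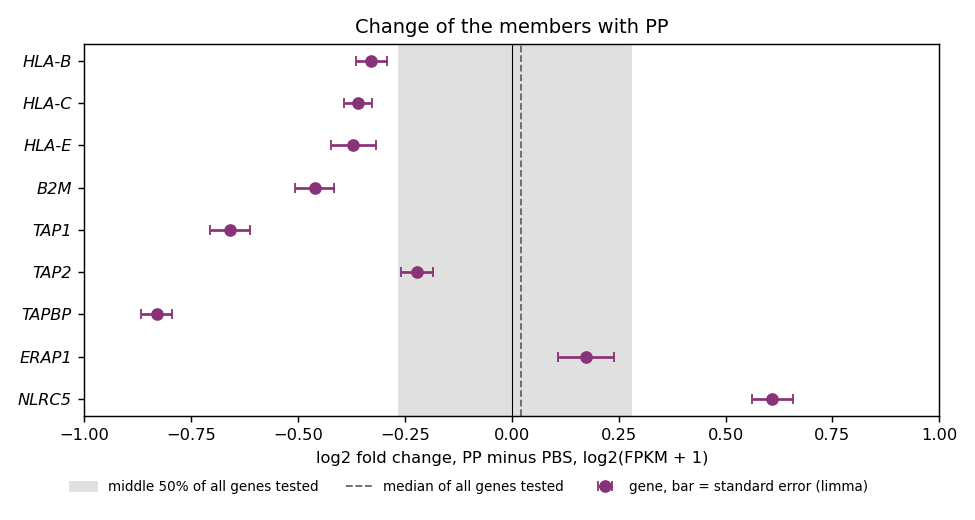
Log2 fold change (PP minus PBS, on log2(FPKM + 1)) of each member with its limma standard error, with the middle 50% of all tested genes in grey (-0.26 to 0.28) and their median dashed. The heavy chains, B2M, TAP1 and TAPBP lie below the grey band, TAP2 and ERAP1 within it and NLRC5 above it.

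For all 9 members the ranges of the groups were apart, which was also true of 35.5% of all tested genes with every PP library below every PBS library and of 39.5% with every PP library above. FPKM is scaled by length, so levels were ordered between genes. The lengths used are not stated, and the order depends on them. With PBS the order was B2M, HLA-C, HLA-B, TAPBP, TAP1, TAP2, HLA-E, NLRC5 and ERAP1, and the ranges of neighbours did not overlap. With PP the order of the means was the same, but TAP1 and TAP2 no longer differed beyond their spread, since the lowest TAP1 library (19.7 FPKM) was below the highest TAP2 library (20.03). HLA-E and NLRC5 drew near each other, with the lowest HLA-E library at 10.4 FPKM and the highest NLRC5 library at 8.97.

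The genes with the pattern nearest to 3 of the members were found by Euclidean distance between centred log2(FPKM + 1) values over the 6 libraries. For B2M these were TPP1 (distance 0.04), TTK, TMEM123, FOXM1 and SLC9A3R2. For TAP1 they were POLR2L (0.03), SNRPD2, TACC3, TMEM106C and TGIF1. For NLRC5 they were SQSTM1 (0.04), USP30, C9orf64, CDK6 and COPG1. None of the other members was among them.

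The rest of the antigen presentation pathway was described from 11 lists holding 80 genes that are not members. Of these, 70 were tested, and 17 were higher, 36 were lower and 17 had no call, with a median log2 fold change of -0.14 against 0.02 for all tested genes. By the same rule 34.4% of all tested genes were lower and 38.1% were higher, and the counts of each list below stand beside these shares. CD1D was not analysed here.

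**Figure D3:**
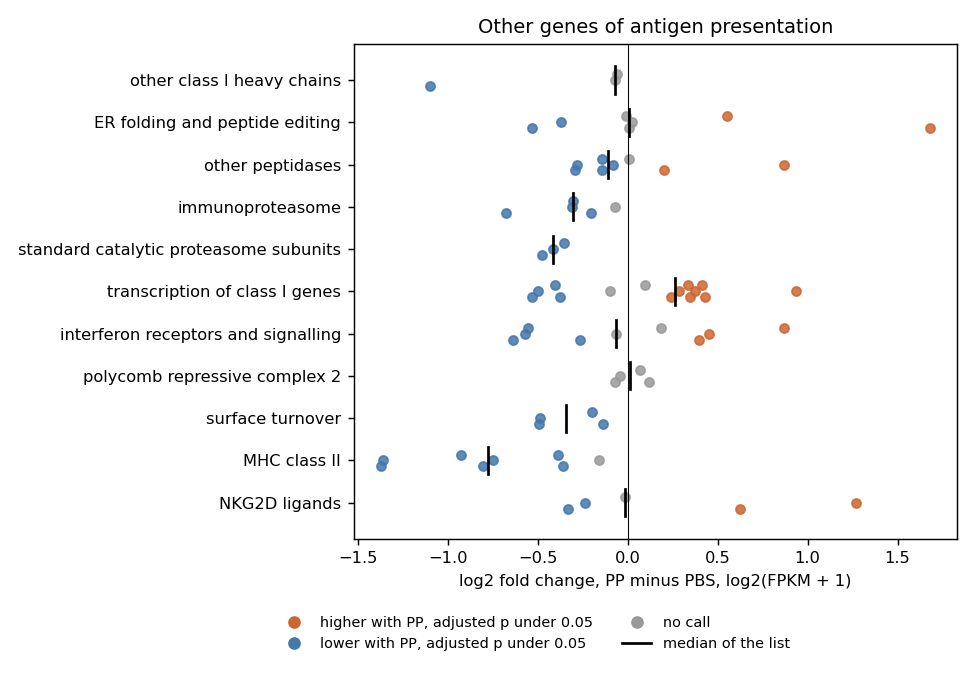
Log2 fold change (PP minus PBS, on log2(FPKM + 1)) of the tested genes of each list, with points coloured by the limma call and a black line at the median of the list. MHC class II, the standard catalytic proteasome subunits, surface turnover and the immunoproteasome hold genes that are lower or without a call, while the transcription list holds 8 higher and 4 lower genes.

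Of 6 other class I and related heavy chains 3 were tested, of which 1 was lower and 2 had no call. FCGRT, the heavy chain of the neonatal Fc receptor, which also pairs with B2M, fell 2.47-fold, from 8.38 ± 0.239 to 3.39 ± 0.0813 FPKM (SD, n = 3; log2 fold change -1.10). HLA-F (log2 fold change -0.06) and MR1, which presents vitamin metabolites (-0.07), did not pass the test.

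Of 7 genes of folding and peptide editing in the endoplasmic reticulum, 2 were higher, 2 were lower and 3 had no call. HSPA5, the chaperone BiP, rose 3.22-fold, from 114 ± 2.65 to 366 ± 2.38 FPKM (SD, n = 3; log2 fold change 1.68), and CANX, calnexin, which holds newly made heavy chains, rose (log2 fold change 0.55). CALR, calreticulin of the peptide loading complex, fell (-0.37), as did TAPBPL, the tapasin-related editor TAPBPR (-0.53). PDIA3, the disulfide isomerase linked to tapasin, was at 0.01 and had no call. The loading complex was therefore not uniform: TAPBP, TAP1, TAP2, B2M and CALR were lower and PDIA3 had no call.

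Of 8 other peptidases 2 were higher, 5 were lower and 1 had no call. THOP1, a cytosolic peptidase that destroys peptides, rose (log2 fold change 0.87), and LNPEP, which trims peptides for cross-presentation, fell (-0.29). ERAP2, the partner of ERAP1, was at 1.45 ± 0.197 FPKM with PBS and 1.80 ± 0.0253 with PP (SD, n = 3), with a log2 fold change of 0.20 (limma adjusted p = 0.0359). Its call was lost without PBS replicate 1 (0.13), PBS replicate 3 (0.22), PP replicate 1 (0.20), PP replicate 2 (0.21) or PP replicate 3 (0.19).

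The immunoproteasome genes, whose products favour cuts that yield class I peptides, were lower in 4 of 5 cases, with 1 gene without a call. PSME1, a subunit of the PA28 activator, fell most (log2 fold change -0.68), followed by the catalytic subunit PSMB8 (-0.31) and the activator subunit PSME2 (-0.30). PSMB10 was at -0.07 and had no call. The standard catalytic subunits that these replace, PSMB5 (-0.48), PSMB6 (-0.35) and PSMB7 (-0.41), were all lower. Within each library the immune subunit stood higher relative to its standard counterpart with PP. The PSMB8 to PSMB5 ratio was 1.03, 1.01 and 1.09 with PBS and 1.17, 1.23 and 1.14 with PP. The PSMB9 to PSMB6 ratio was 0.362, 0.349 and 0.372 with PBS and 0.3998, 0.384 and 0.417 with PP. The PSMB10 to PSMB7 ratio was 0.108, 0.113 and 0.111 with PBS and 0.146, 0.152 and 0.125 with PP. Groups were apart for all 3 ratios, with log2 differences of 0.17, 0.15 and 0.34, and the two-sided exact permutation p was 0.1 for each, before and after adjustment over the 3, the smallest the design allows.

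Of 15 genes that act in the transcription of class I genes, 14 were tested, and 8 were higher, 4 were lower and 2 had no call, a median log2 fold change of 0.26. The RFX complex, which binds the X box and with which NLRC5 works, went in different directions. RFX5 fell from 32.5 ± 0.709 to 22.2 ± 0.508 FPKM (SD, n = 3; log2 fold change -0.53), while RFXAP was at 0.24 (limma adjusted p = 0.0204) and RFXANK was at -0.10 without a call. The call for RFXAP was lost without PBS replicate 2 (log2 fold change 0.16), PBS replicate 3 (0.23) or PP replicate 3 (0.22). Of the NF-Y subunits, which bind CCAAT, NFYA fell (-0.38), NFYC rose (0.41) and NFYB had no call (0.10). CREB1 (0.28) and ATF1 (0.43), which bind the X2 box, and the NF-κB subunits RELA (0.34) and NFKB1 (0.34) rose. CIITA, the class II counterpart of NLRC5, was below the filter and was not tested, with 0.994 to 1.15 FPKM with PBS and 0.493 to 0.523 with PP.

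IRF1, an activator that acts on interferon-response elements, was at 20.3, 22.0 and 21.3 FPKM with PBS and at 41.4, 41.6 and 41.1 with PP. It rose in every PP library, 1.95-fold in the mean (log2 fold change 0.93, SE 0.04, limma adjusted p = 1.81e-08). IRF9 also rose (0.37), and IRF2, another IRF factor, fell (-0.50). STAT2, a factor of the type I interferon response, fell (-0.40). NLRC5 and IRF1 thus rose in the same libraries in which TAP1, TAPBP, B2M and the heavy chains fell.

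Of 9 genes of interferon receptors and signalling, 3 were higher, 4 were lower and 2 had no call. The interferon-γ receptor chains diverged, with IFNGR1 higher (log2 fold change 0.45) and IFNGR2 lower (-0.55). Both chains of the type I receptor were lower (IFNAR1 -0.26, IFNAR2 -0.57). The kinases JAK1 (0.87) and JAK2 (0.39) were higher, and the feedback inhibitor SOCS3 was lower (-0.64).

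The 4 genes of polycomb repressive complex 2, which is known to silence class I loading genes in some neuroendocrine tumours, had no call in either direction by limma (0 of 4, also at an unadjusted P below 0.05). By limma-voom on recovered counts 0 of 4 had a call, and 1, EZH1, had an unadjusted P below 0.05. On log2(FPKM + 1) the log2 fold changes ran from -0.07 for EZH2 to 0.12 for EZH1. Of 5 genes of surface turnover, 4 were tested and all 4 were lower, among them SUSD6 (-0.49) and TMEM127 (-0.49), known as partners in the removal of class I molecules from the surface. The smallest of these decreases was that of MARCHF9 (log2 fold change -0.14, limma adjusted p = 0.0373), whose PBS and PP libraries overlapped. MARCHF4, a ubiquitin ligase of class I molecules, was below the filter, at 1.09 to 1.24 FPKM with PBS and 0.0930 to 0.230 with PP.

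MHC class II genes share the X and Y boxes with class I genes. Of 10 listed genes 8 were tested, 7 were lower and 1 had no call. CD74, the invariant chain, was the most abundant and fell 2.67-fold, from 38.1 ± 1.90 to 14.2 ± 0.665 FPKM (SD, n = 3; log2 fold change -1.36). HLA-DQB1 (-1.37), HLA-DPA1 (-0.92), HLA-DRA (-0.80) and HLA-DMB (-0.75) also fell, with HLA-DRA resting on 28 to 104 counts per library.

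Of 8 NKG2D ligands, stress-induced relatives of class I that mark cells for natural killer cells, 5 were tested, and 2 were higher, 2 were lower and 1 had no call. ULBP1 rose 3.43-fold, from 1.39 ± 0.158 to 4.77 ± 0.413 FPKM (SD, n = 3; log2 fold change 1.27), and ULBP2 rose (0.62). MICB fell (-0.33). These ligands do not need B2M, TAP or tapasin and were called in both directions.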

How the data were processed

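RNA from NCI-H660 cells was made into strand-specific TruSeq libraries and sequenced with paired reads. The authors deposited FPKM values per gene symbol. Per the labels' processing notes the tools were fastp, HISAT2 and HTSeq with GRCh38, whereas the study's methods name Bowtie, another build, RSEM, Cufflinks and HTSeq-count. Which of them made the values, and whether counting used strand, is not given in the sources used here. Samples were grouped by their treatment label, 3 libraries each.

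All values of all expressed genes were whole multiples of a step, within a tolerance of 0.01 of a count (100% of genes above 0), so counts were recovered. They gave 29064253 to 32481171 per library and serve for depth and for 1 alternative. With such totals a member is known from at least 861 counts in a library. Libraries of the same treatment differed by more than sampling noise (chi-square per degree of freedom of 3.37 to 7.07), so none was a repeat deposit. Genes whose mean FPKM reached 1 were kept and log2(FPKM + 1) was fitted with limma 3.58.1 (lmFit, eBayes with trend) in R 4.3.3 over all 6 libraries, P values being adjusted by Benjamini-Hochberg. A fold change on this scale understates the change of low genes. Ratios of FPKM were compared by two-sided exact permutation tests (scipy 1.17.1, Python 3.11.15).

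The fit and the recovery of counts were tested on simulated data first.

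The members and the lists were chosen with earlier results of these data known. All 9 members are named, any gene of a list may be named beside the count over that list, and for B2M, TAP1 and NLRC5 the 5 nearest genes are named. Alternatives were other pseudocounts (0.1 and 0.5), other filters on low values, median-ratio scaling, no trend, the replicate number as a block, limma-voom on the recovered counts and leaving out each library. Some genes are not reported here.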

Additional observations from a re-analysis of the deposited data

How the results depend on the processing

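The 7 members that fell were called lower under every alternative run, and NLRC5 was called higher under every one. ERAP1 was the exception: the count of members called higher was 2 as reported and 1 with no filter on low values, 1 with a mean FPKM of at least 5 (where ERAP1 was not tested) and 1 when fitted with a replicate block, and it ranged from 1 to 2 when a library was left out. Of the listed pathway genes 17 were called higher as reported and 11 with the filter at a mean FPKM of 5, which tests fewer genes. Over all genes, 344 passed the fold cutoff in the lower direction as reported, 531 with a pseudocount of 0.1 and 559 with limma-voom on the recovered counts. In the higher direction the counts were 263, 375 and 397 in the same order, and the cause was not tested. For 54 named genes 797 values were recomputed, of which 781 kept their direction and call, 16 lost the call and 0 changed direction, the lost calls being those of ERAP1, ERAP2, PSMB9 and RFXAP. Median-ratio scaling moved the median of all genes from 0.02 to 0.01.

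The replicate numbers were shared by PBS and PP libraries, but deviations from the group means did not go together (correlations of -0.21, -0.01 and -0.13 for numbers 1, 2 and 3), and no library was most like that with its own number. With the replicate block 4260 genes were higher and 3878 lower, against 4464 and 4032 without it, and the adjusted p of ERAP1 by limma was 0.0565. The ratio tests with swaps within a number cannot give a p under 0.25.

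Precision rests on 3 libraries per group, since all members had at least 861 counts in each. The split of reads among similar class I heavy chain genes, the tool that made the FPKM values and the PP dose could not be checked.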
